A study of Mus musculus with 12 samples.

Results

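The atrial muscle genes Myl4, Myl7, Mybphl, Sln, Bmp10, Dkk3, Stard10 and Sbk3 were followed through 12 RNA-seq libraries of mouse hearts. They are 8 of the 24918 genes in the authors' deposited table and were picked by name. The names were chosen by their differences between cardioGRKO and floxed hearts in these same libraries. Those differences and all other values of the 8 genes are therefore given as a description, without a test. In cardioGRKO mice, GRloxP/loxP with 1 copy of the αMHC-Cre transgene, the glucocorticoid receptor gene is deleted by a recombinase made in cardiomyocytes. Floxed mice, GRloxP,loxP without Cre, carry the same loxP sites and keep the receptor. Both sexes of each genotype were sampled untreated at 2 months of age, all on C57BL/6, with 3 libraries in each of the 4 groups. The αMHC promoter that drives Cre is active in atrial and in ventricular muscle, and cardioGRKO mice alone carry Cre, so that the deletion and Cre cannot be told apart. The labels call the tissue heart and do not say which chambers were taken, nor whether the 3 libraries of a group are 3 animals, so the spread given here may be technical.

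Atrial and ventricular cardiomyocytes build their contractile apparatus from partly different proteins. Atrial cells use their own essential and regulatory myosin light chains. They restrain the calcium pump of the sarcoplasmic reticulum in part with sarcolipin, where ventricular cells rely mainly on phospholamban. They also release hormones and growth factors such as atrial natriuretic peptide and BMP10. In the adult mouse heart, transcripts of Myl4, Myl7, Sln and Bmp10 are far more abundant in the atria than in the ventricles. In RNA of whole tissue, more cells of a type and more RNA per cell cannot be told apart.

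The values are log2 levels normalized by the authors, and 1 unit is read here as a doubling, although the exact transformation is not given. Nr3c1, the gene of the receptor, was read first as a check of the labels. It stood at 10.83, 10.85 and 10.88 in male cardioGRKO libraries, against 11.40, 11.42 and 11.42 in male floxed libraries, a difference of -0.56 (limma, adjusted p = 2.4e-11). In the libraries labelled female cardioGRKO it stood at 10.90, 10.90 and 10.85, against 10.74, 10.71 and 10.78 in those labelled female floxed, a difference of 0.14 in the direction opposite to the labels (adjusted p = 0.00038). The female groups are therefore called by their labels throughout, and every direction in them rests on those labels. The genotype field reads wild-type for all 12 libraries, so the groups come from the titles. Corneal epithelium markers summed to between 1169 and 34650 normalized units in the libraries labelled female floxed, of which numbers 1 and 2 were the high ones, and to between 780 and 1226 in all other libraries. Values without those 2 libraries are given below. General cardiomyocyte markers were abundant in every library, with 12 of 12 tested.

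All 8 atrial muscle genes passed the filter on low values, as did 14721 genes in all. Their levels differed little among libraries of a group, with within-group SDs of 0.00711 to 0.0624 log2 and a median of 0.0288, close to the median of 0.027 over all genes tested. In males all 8 were higher in cardioGRKO than in floxed hearts, by 1.03 to 2.52 log2 with a median of 1.56. In the libraries labelled female all 8 were lower in cardioGRKO than in floxed, by differences of -1.26 to -0.53 with a median of -1.01. The median over all genes tested was -0.00212 in males and -0.000368 in females.

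The groups did not overlap in any of the 8 genes, in either sex. Over all genes tested, all 3 cardioGRKO libraries lay above all 3 floxed libraries in 19.4% of genes in males, and below them in 19.1% in females. Since the 8 genes were chosen by these same comparisons, nothing is read from that contrast. The general background was wide. In males 27.4% of all genes tested were called by limma at an adjusted p under 0.05, 12.8% higher and 14.6% lower. In females 29.3% were called, 15.2% higher and 14.0% lower. The male difference differed from the female one in 31.3% of genes by the same test.

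**Figure D1:**
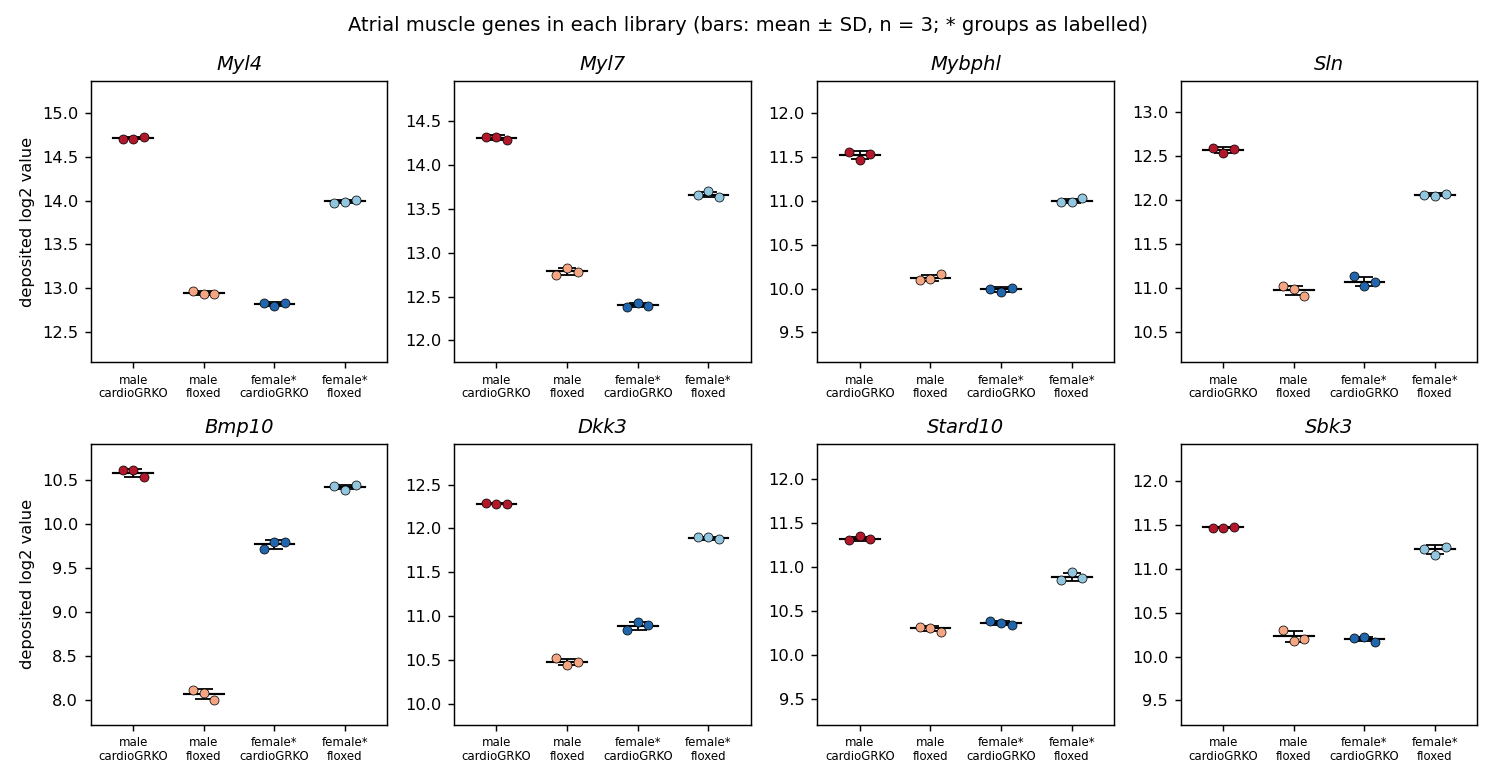
Deposited log2 values of the 8 atrial muscle genes in each of the 12 libraries, by group (points: libraries; lines and bars: mean ± SD, n = 3), with axes of equal span that do not start at 0. In every panel the male cardioGRKO libraries are highest, at 14.71 on average for Myl4, and the libraries labelled female floxed are second, at 13.99 for Myl4.

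Myl4 and Myl7 encode the light chains of atrial myosin. MYL4 is the essential light chain, which stabilizes the lever arm of the myosin head, and MYL7 the regulatory light chain, whose phosphorylation tunes contraction. Myl4 (Entrez 17896) stood at 14.70, 14.70 and 14.72 in male cardioGRKO libraries, against 12.97, 12.94 and 12.93 in male floxed libraries. The male cardioGRKO libraries were the high ones, with no overlap and a 3.39-fold difference (1.76 log2). Among libraries labelled female, Myl4 stood at 12.83, 12.80 and 12.83 in cardioGRKO, against 13.97, 13.98 and 14.01 in floxed. Here the cardioGRKO libraries were the low ones, at 0.446 of the floxed level (-1.17 log2).

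Myl7 (Entrez 17898) followed the same order. Its values were 14.32, 14.32 and 14.28 in male cardioGRKO libraries, against 12.75, 12.83 and 12.78 in male floxed libraries, a 2.87-fold difference (1.52 log2). Female-labelled values were 12.38, 12.43 and 12.39 in cardioGRKO, against 13.66, 13.70 and 13.64 in floxed, a ratio of 0.417 (-1.26 log2). The female difference was the largest in size among the 8 genes, and the lowest group of Myl7 was the one labelled female cardioGRKO.

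Both light chain genes lie on chromosome 11, and their promoters are shown because the pair shared 1 order of the 4 groups. By group means, Mybphl and Sbk3 had that order too. RefSeq promoter windows of GRCm38.p6, from 250 bases before to 50 after the gene's start, were found for 6 of the 8 genes. Capitals mark matches on either strand to the searched motifs, which were the glucocorticoid receptor half-site AGAACA, the GATA factor motif AGATAA, the T-box motif AGGTGT, the TEAD motif CATTCC, the TATA box TATAAA, the MEF2 motif and the serum response factor's CArG box. The window of Myl4 (chr11:104550413-104550712, plus strand) holds 1 AGAACA, starting at -92 from the gene's start. The window of Myl7 (chr11:5898733-5899032, minus strand) holds 1 CATTCC starting at -70 and, 3 bases after its end, 1 CArG box starting at -61.
Myl4: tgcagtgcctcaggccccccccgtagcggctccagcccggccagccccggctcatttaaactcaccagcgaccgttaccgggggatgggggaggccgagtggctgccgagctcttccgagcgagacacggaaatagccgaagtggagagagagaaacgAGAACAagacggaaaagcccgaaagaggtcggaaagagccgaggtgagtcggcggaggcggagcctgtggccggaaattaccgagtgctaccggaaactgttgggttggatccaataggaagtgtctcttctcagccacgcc
Myl7: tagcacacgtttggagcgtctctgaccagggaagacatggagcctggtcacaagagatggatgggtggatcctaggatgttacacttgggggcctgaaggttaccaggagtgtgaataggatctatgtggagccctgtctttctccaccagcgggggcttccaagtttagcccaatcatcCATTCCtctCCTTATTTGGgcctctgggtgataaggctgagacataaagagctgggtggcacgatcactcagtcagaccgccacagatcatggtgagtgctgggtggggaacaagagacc
The 2 windows share none of these matches. Among all 32851 promoter windows of the same length, 19% hold AGAACA, 14.7% CATTCC and 1.63% a CArG box, and these letters alone do not show binding by any factor.

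Mybphl encodes a relative of cardiac myosin-binding protein C that is abundant in atrial muscle and in the conduction system. It stood at 11.55, 11.46 and 11.53 in male cardioGRKO libraries, against 10.10, 10.11 and 10.16 in male floxed libraries. Its male cardioGRKO libraries were all higher, by 2.63-fold (1.39 log2). By contrast, Mybphl in the libraries labelled female stood at 10, 9.96 and 10.01 in cardioGRKO, against 10.99, 10.98 and 11.03 in floxed. The cardioGRKO libraries were all lower, at 0.497 of the floxed level (-1.01 log2).

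Sln encodes sarcolipin, a small membrane peptide that inhibits the calcium pump SERCA and is, in the mouse heart, largely atrial. It stood at 12.59, 12.53 and 12.58 in male cardioGRKO libraries, against 11.02, 10.99 and 10.91 in male floxed libraries. The cardioGRKO libraries were again all higher, by 3.02-fold (1.59 log2). Libraries labelled female had the reverse order, in which Sln stood at 11.13, 11.02 and 11.06 in cardioGRKO, against 12.06, 12.05 and 12.07 in floxed. They did not overlap, with cardioGRKO at 0.503 of floxed (-0.99 log2), and the lowest of the 4 groups was male floxed. The lowest library labelled female cardioGRKO and the highest male floxed library both stood at 11.02.

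Bmp10 encodes a growth factor of the TGF-beta superfamily that the atria secrete, which signals through ALK1 on endothelium and through other BMP receptors. It had the largest male difference of the 8 genes. Bmp10 stood at 10.62, 10.61 and 10.53 in male cardioGRKO libraries, against 8.11, 8.07 and 8.0 in male floxed libraries, 5.75-fold apart (2.52 log2). Its values in the libraries labelled female were 9.71, 9.80 and 9.79 in cardioGRKO, against 10.43, 10.39 and 10.44 in floxed, a ratio of 0.637 (-0.65 log2). Its male floxed libraries stood apart from the other 3 groups, which had no library under 9.71.

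Bmp10 lies on chromosome 6. Its window (chr6:87428744-87429043, plus strand) is shown because it was 1 of 2 among the 6 to hold AGATAA, and held it at 2 places, starting at -219 and -33. The other was that of Mybphl, with 1 match starting at -141. Capitals mark the matches.
Bmp10: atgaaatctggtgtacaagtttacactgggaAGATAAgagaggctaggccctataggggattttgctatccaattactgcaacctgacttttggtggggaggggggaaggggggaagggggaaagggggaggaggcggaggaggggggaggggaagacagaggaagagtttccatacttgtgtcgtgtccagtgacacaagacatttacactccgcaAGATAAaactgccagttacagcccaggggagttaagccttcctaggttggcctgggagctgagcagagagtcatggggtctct
Of all promoter windows 11.2% hold AGATAA. Of the windows of Stard10 and Sbk3, that of Stard10 held 1 AGAACA and 1 CATTCC, and that of Sbk3 held no match. The T-box motif, the MEF2 motif and the TATA box, found in 13.7%, 3.19% and 13.6% of all windows, had no match in the 6 windows.

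Dkk3 encodes a secreted glycoprotein of the Dickkopf family. It stood at 12.29, 12.28 and 12.28 in male cardioGRKO libraries, against 10.52, 10.44 and 10.48 in male floxed libraries. These groups were 3.49-fold apart (1.80 log2), with an SD of 0.00711 among the male cardioGRKO libraries. The libraries labelled female again differed in the other direction, and Dkk3 stood at 10.84, 10.93 and 10.90 in cardioGRKO, against 11.90, 11.90 and 11.88 in floxed. All cardioGRKO libraries were lower, at 0.498 of floxed (-1.01 log2).

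Stard10 encodes a lipid-transfer protein of the START family that binds phosphatidylcholine. It had the smallest difference of the 8 genes in both sexes. Stard10 stood at 11.31, 11.35 and 11.32 in male cardioGRKO libraries, against 10.32, 10.30 and 10.26 in male floxed libraries, 2.04-fold apart (1.03 log2). Stard10 in the libraries labelled female stood at 10.38, 10.36 and 10.34 in cardioGRKO, against 10.85, 10.94 and 10.87 in floxed, a ratio of 0.694 (-0.53 log2). The groups stayed apart in both sexes all the same.

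Sbk3 encodes a protein kinase of the SH3 domain-binding kinase family. It stood at 11.46, 11.46 and 11.48 in male cardioGRKO libraries, against 10.30, 10.18 and 10.20 in male floxed libraries, 2.37-fold apart (1.24 log2). Sbk3 in the libraries labelled female stood at 10.21, 10.22 and 10.17 in cardioGRKO, against 11.23, 11.16 and 11.25 in floxed, a ratio of 0.494 (-1.02 log2). Sbk3 was the 1 gene of the 8 with an overlap between neighbours in the order of levels, between the libraries labelled female cardioGRKO and the male floxed libraries.

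Overlapping transcripts may limit what some of these values measure. Overlap was read from whole gene spans, and whether exons overlap was not examined. In the GENCODE annotation 4 genes overlap Myl4, among them the antisense gene Gm11665, 2 overlap Stard10, among them the antisense gene Gm20476, and 1 overlaps Mybphl. The counting is not stated to use strand. Where exons overlap, reads of these genes and of their antisense partners could then not be told apart. The other 5 genes have no overlapping gene.

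**Figure D2:**
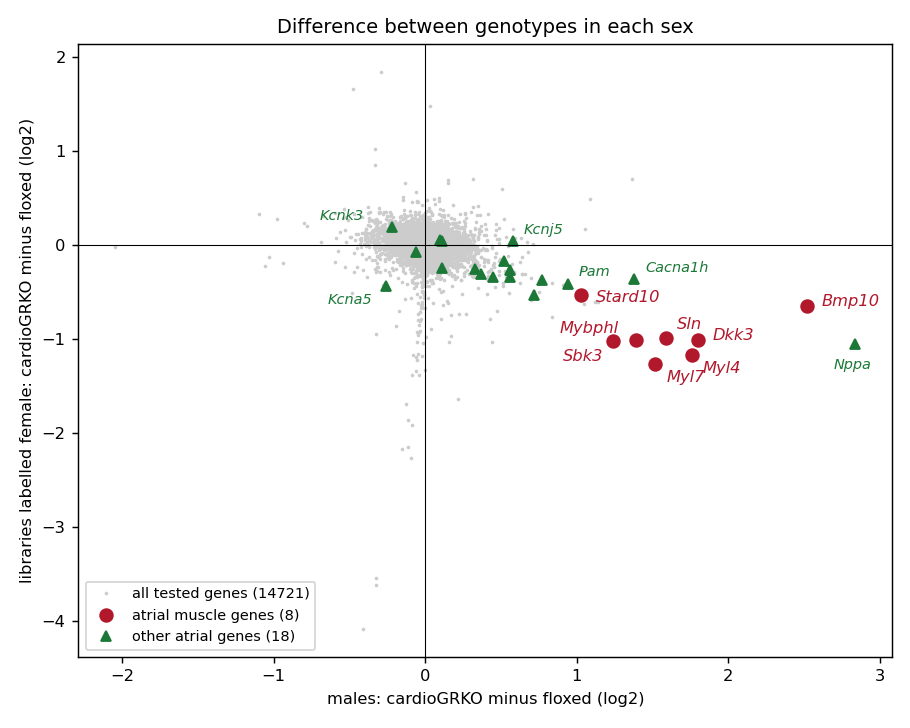
Difference between cardioGRKO and floxed in males (x axis, log2) and in the libraries labelled female (y axis, log2), for each of 14721 genes tested, with the 8 atrial muscle genes as red circles and 18 other atrial genes as green triangles. All 8 circles lie at the lower right, between 1.03 and 2.52 in males and between -1.26 and -0.53 in females.

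The same 4 groups can be read across genotypes. Male cardioGRKO was the highest group and the one labelled female floxed the second in all 8 genes. The lowest was male floxed for Sln, Bmp10, Dkk3 and Stard10, and the one labelled female cardioGRKO for Myl4, Myl7, Mybphl and Sbk3. The libraries labelled female floxed exceeded male floxed by 0.59 to 2.36 log2, with a median of 1.01. Those labelled female cardioGRKO lay below male cardioGRKO, with differences of -1.91 to -0.82 and a median of -1.45.

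Groups with opposite labels lay closer. The libraries labelled female cardioGRKO and the male floxed libraries differed by a median of 0.02, with 4 genes above 0 and 4 below. Bmp10 was the exception, 1.71 higher in the libraries labelled female cardioGRKO than in male floxed, followed by Dkk3 at 0.41. Between the libraries labelled female floxed and male cardioGRKO, differences were -0.72 for Myl4 to -0.17 for Bmp10, with a median of -0.47. For Nr3c1 the libraries labelled female cardioGRKO differed from male floxed by -0.53 and from male cardioGRKO by 0.03. Those labelled female floxed differed from male cardioGRKO by -0.11 and from male floxed by -0.67. Nr3c1 was thus low in both female groups, near the level of male cardioGRKO and under that of male floxed. Whether the female labels are exchanged was not tested.

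The size of the female difference, as a share of the male one on the log2 scale, was 82.9% for Myl7 and 81.9% for Sbk3. It was 72.4% for Mybphl, 66.2% for Myl4 and 62.2% for Sln. Dkk3 and Stard10 had 55.8% and 51.3%, and Bmp10 had 25.7%. With the library labelled female floxed 3 as the only one kept of its group, the female differences were -1.19 for Myl4, -1.23 for Myl7, -1.04 for Mybphl, -1.0 for Sln, -0.67 for Bmp10, -0.99 for Dkk3, -0.51 for Stard10 and -1.06 for Sbk3. The 2 libraries with corneal transcripts thus moved no gene's difference by as much as 0.05.

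For Myl4, Myl7, Sln and Mybphl, the transcript level was also set against that of the ventricular counterpart, or of the more abundant relative, per exon length. These shares use the log2 values turned back to a linear scale and divided by the gene's exon length in GENCODE. MYL3 and MYL2 are the essential and regulatory light chains of ventricular myosin, and phospholamban, encoded by Pln, is the pump inhibitor of ventricular muscle. Myl4 made up 13.3 ± 0.113% of Myl4 and Myl3 together in male cardioGRKO hearts, against 3.81 ± 0.0509% in male floxed hearts (SD, n = 3 each). In the libraries labelled female it made up 3.95 ± 0.0992% in cardioGRKO, against 8.41 ± 0.222% in floxed.

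Myl7 made up 15.8 ± 0.234% of Myl7 and Myl2 in male cardioGRKO hearts, against 5.52 ± 0.139% in male floxed hearts. Its share was 4.10 ± 0.0368% in the libraries labelled female cardioGRKO, against 9.29 ± 0.443% in those labelled female floxed. Sln made up 6.85 ± 0.183% of Sln and Pln in male cardioGRKO hearts, against 2.14 ± 0.0939% in male floxed hearts, and 2.40 ± 0.145% in the libraries labelled female cardioGRKO, against 4.98 ± 0.063% in those labelled female floxed. For Mybphl among Mybphl and Mybpc3, the cardiac myosin-binding protein C, the shares were 6.82 ± 0.122% in male cardioGRKO and 2.77 ± 0.105% in male floxed hearts. They were 2.67 ± 0.055% in the libraries labelled female cardioGRKO and 5.77 ± 0.0569% in those labelled female floxed. The ventricular or general partner thus made up most of each pair in all 4 groups.

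**Figure D3:**
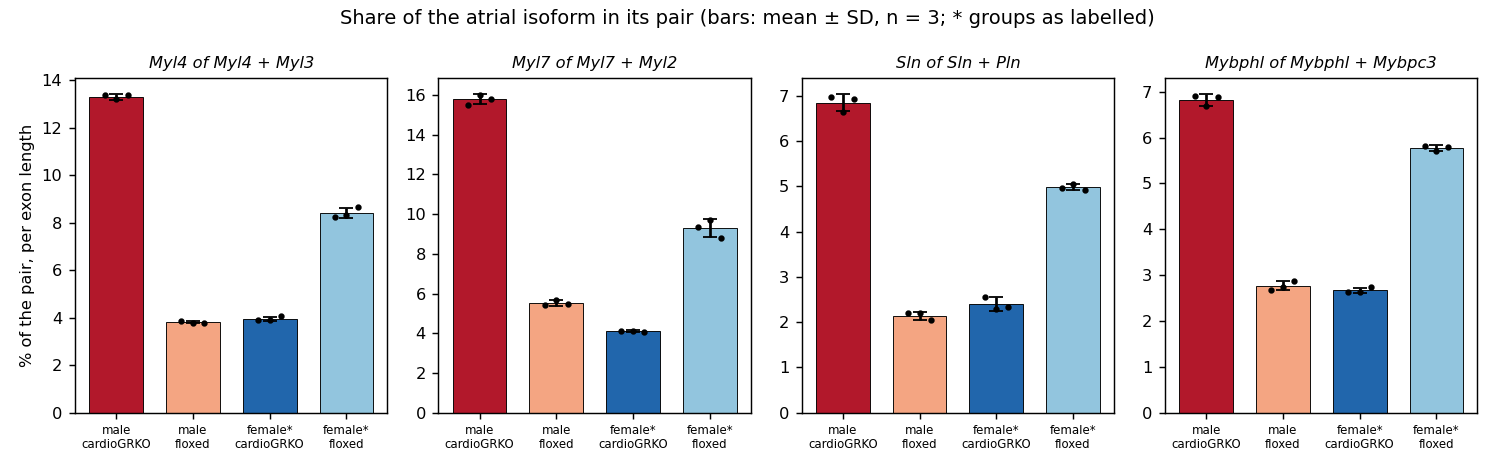
Share of the atrial gene in its pair, in percent and per exon length, for Myl4 with Myl3, Myl7 with Myl2, Sln with Pln and Mybphl with Mybpc3 (bars and error bars: mean ± SD, n = 3; points: libraries). The share of Myl7 is 15.8% in male cardioGRKO and 5.52% in male floxed hearts, and 4.10% in libraries labelled female cardioGRKO and 9.29% in those labelled female floxed.

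On the per-length scale Myl7 was the most abundant of the 8 in every group, at 34400 ± 619 normalized units per kilobase in male cardioGRKO hearts, against 12000 ± 323 in male floxed hearts. Bmp10 was the least abundant in every group, at 342 ± 11.4 in male cardioGRKO and 59.5 ± 2.33 in male floxed hearts. In the libraries labelled female these levels were 9170 ± 152 in cardioGRKO and 22000 ± 464 in floxed for Myl7, and 194 ± 6.78 in cardioGRKO and 305 ± 5.56 in floxed for Bmp10 (SD, n = 3 each).

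A list of 18 other atrial genes, all tested, was read beside the 8. In males 15 of the 18 rose and 2 fell, with a median of 0.48. A p in parentheses after a difference is limma's adjusted p over all genes tested, here and below. In females 14 fell and 1 rose, with a median of -0.29. The shares called were 94.4% in males and 83.3% in females, against 27.4% and 29.3% over all genes tested. This list and those below were chosen with earlier results of these data known, so their shares and p-values are given as a description. The male difference exceeded the female one in 14 and fell short of it in 1. Nppa, which encodes atrial natriuretic peptide, stood at 16.23 ± 0.00308 in male cardioGRKO and 13.39 ± 0.00832 in male floxed hearts (SD, n = 3 each), a rise of 2.84 (limma, adjusted p = 6.2e-23). Nppa in the libraries labelled female stood at 15.04 ± 0.0232 in cardioGRKO and 16.10 ± 0.0386 in floxed, a difference of -1.05 (adjusted p = 1.4e-16). As with Bmp10, its male floxed group stood far below the other 3.

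Pam, the enzyme that amidates peptide hormones and is abundant in atrial granules, rose by 0.94 in males (adjusted p = 1.4e-17) and changed by -0.41 in females (3.2e-12). Cacna1h, a T-type calcium channel, rose by 1.38 in males (2.8e-15) and changed by -0.36 in females (1.6e-07). Hamp, which encodes the iron hormone hepcidin, rose by 0.72 (2.2e-11) in males and changed by -0.53 in females (2.1e-09). Kcnj5, a subunit of the acetylcholine-gated potassium channel, rose by 0.58 in males (3.4e-12) and stood 0.04 apart in females (adjusted p = 0.18). Kcna5, the potassium channel of the ultrarapid current, fell in both sexes, by 0.26 in males (1.1e-06) and by 0.43 in females (6.1e-09).

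An exception in this list is named here after its values were seen. Kcnk3, the acid-sensitive potassium channel TASK-1, was the other gene that fell in males (-0.22, adjusted p = 9.6e-08) and the 1 that rose in females (0.19, 8.5e-07). The summed level of the list, to which Nppa and Pam contributed most, was 143715 to 144518 in male cardioGRKO, against 54069 to 54409 in male floxed libraries. It was 77843 to 78883 in the libraries labelled female cardioGRKO, against 121322 to 124147 in those labelled female floxed. How much atrial tissue each sample held is not given in the labels, and its part in these differences was not tested.

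Ventricular genes moved less. Of 12 listed, 11 were tested, and in males 1 rose and 6 fell, with a median of -0.08. After quantile normalization 2 rose and 2 fell in males. In females 4 rose and 2 fell, with a median of 0.01. The shares called were 63.6% in males and 54.5% in females, against 27.4% and 29.3% over all genes tested. Myl3 fell by 0.20 in males (adjusted p = 2.1e-08) but stood at 0.05 after quantile normalization, and it was -0.01 apart in females (0.73). Myl2, given as the partner of Myl7, fell by 0.16 in males (9.3e-06) and stood at -0.01 in females (0.88). Pln fell by 0.15 in males (4.6e-06) and rose by 0.10 in females (0.00035), both lost after quantile normalization, and Kcnj2, an inward rectifier potassium channel, fell by 0.26 in males (2.9e-06).

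Kcnip2, a subunit of the transient outward potassium channel, rose by 0.17 in males (8.7e-07) and by 0.18 in females (7.1e-07). Irx3, a transcription factor of the ventricular conduction system, stood 0.02 apart in males (0.63) and changed by -0.25 in females (4.9e-06). Lbh, a transcription cofactor, rose by 0.17 in females (1.4e-07). Its male difference of -0.05 (0.017) was no longer called without male cardioGRKO 1 or without male floxed 1, and stood at 0.01 after quantile normalization. The female difference of Kcnj2 (-0.09, adjusted p = 0.024) was likewise lost without the library labelled female cardioGRKO 1, female cardioGRKO 2 or female floxed 1.

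**Figure D4:**
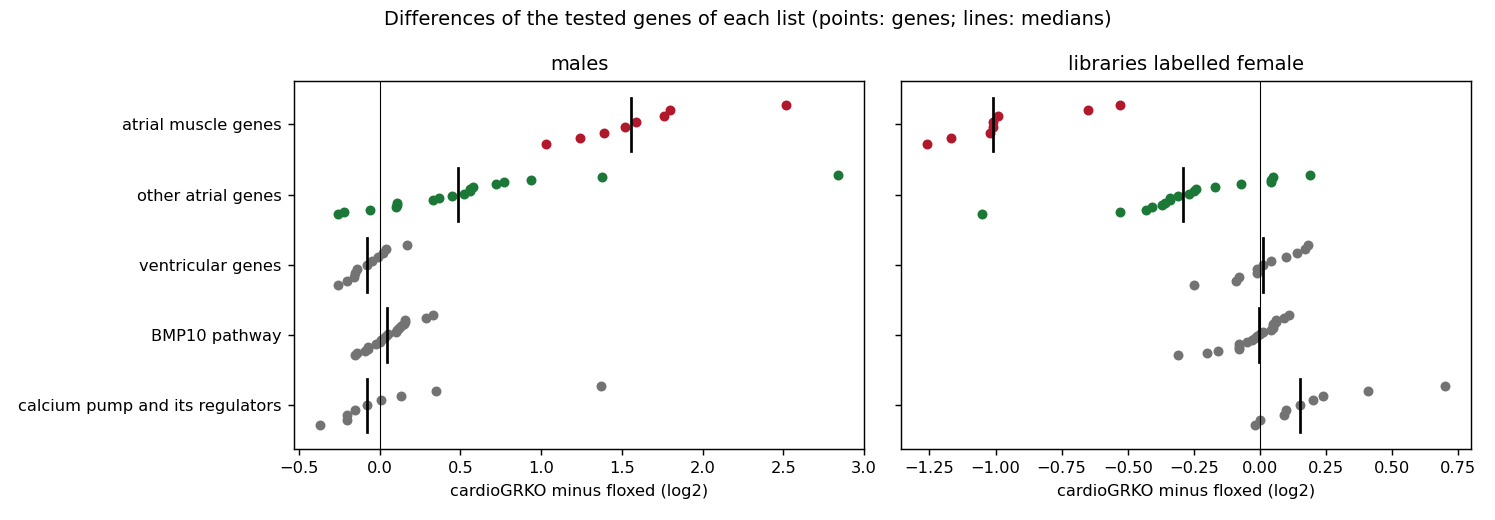
Difference between cardioGRKO and floxed (x axis, log2) for each tested gene of 5 lists, in males (left) and in the libraries labelled female (right). Points are genes and vertical lines medians. The medians of the 8 atrial muscle genes are 1.56 and -1.01, those of the 18 other atrial genes 0.48 and -0.29, and those of the 11 ventricular genes -0.08 and 0.01.

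Relatives of the 8 genes by protein family did not share one direction. Of 29 listed, 24 were tested. In males 8 rose and 6 fell, with a median of 0.02, and after quantile normalization 9 rose and 3 fell. In females 4 rose and 6 fell, with a median of -0.01, and after quantile normalization 2 rose and 6 fell. The shares called were 58.3% in males and 41.7% in females, against 27.4% and 29.3% over all genes tested. Sbk2, the kinase next to Sbk3 on chromosome 7, had the pattern of the 8 genes, rising by 0.77 in males (adjusted p = 6.8e-11) and changing by -0.37 in females (8e-07). Myl1, a light chain of fast skeletal muscle, rose by 0.46 in males (2.5e-08) and changed by -0.23 in females (6.9e-05). Myl9, a light chain of smooth muscle and non-muscle cells, was called lower in females by 0.52 (7e-08) and higher in males by 0.41 (6.9e-07).

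The myosin-binding proteins C, relatives of Mybphl, went another way. Mybpc2, the fast skeletal form, rose in both sexes, by 0.32 in males (1.8e-07) and by 0.70 in females (2.1e-11). Mybpc3 stood 0.03 apart in males (0.18) and rose by 0.15 in females (1.9e-06), a call lost after quantile normalization.

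In the pathway of BMP10, covering receptors, SMADs and target genes, all 20 genes listed were tested. In males 9 rose and 3 fell, with a median of 0.04, and in females 2 rose and 4 fell, with a median of -0.01. The share called was 60% in males, where it was 27.4% over all genes tested. In females it was 30%, near the 29.3% over all genes, so the female count is not a result about the pathway. With the library labelled female floxed 3 alone of its group, 1 rose and 3 fell in females. Acvrl1, which encodes the receptor ALK1, was called lower in males (-0.15, adjusted p = 0.00068) and higher in females (0.09, 0.025). It was named after its values were seen. Acvr1, the type I receptor ALK2, was called in females (-0.16, adjusted p = 0.0007). In males it stood at 0.11 (0.012), no longer called without male cardioGRKO 1 or without male floxed 3.

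Downstream of the receptors, Smad6, an inhibitory SMAD that BMP signals induce, rose by 0.33 in males (1.2e-07) and stood at -0.08 in females (0.052). Smad7, also inhibitory, changed by -0.20 in females (0.00019) and rose by 0.15 in males (0.0016). Id2 and Id3, inhibitors of DNA binding and classical BMP targets, rose by 0.29 (1.9e-05) and 0.16 (0.00018) in males. In females they stood at -0.05 (0.32) and 0.06 (0.089). Tbx20, a transcription factor of the heart, rose by 0.16 in males (0.00015) and changed by -0.31 in females (1.4e-07). Smad5, a BMP effector, was called in females (0.11, 0.0027), but not with the library labelled female floxed 3 alone of its group, and its male call (-0.09, 0.0077) was lost without male cardioGRKO 1.

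Around sarcolipin, 9 genes of the calcium pump and its regulators were tested. In males 3 rose and 4 fell, with a median of -0.08, and after quantile normalization 4 rose and 2 fell. In females 7 rose and 0 fell, with a median of 0.15, and after quantile normalization 6 rose and 1 fell. The share called was 77.8% in each sex, against 27.4% in males and 29.3% in females over all genes tested. Atp2a2, the cardiac calcium pump, fell by 0.20 in males (3.3e-10), a call lost after quantile normalization, and rose by 0.20 in females (1e-09). Hrc, a calcium-binding protein of the same compartment, fell by 0.20 in males (2.1e-07) and rose by 0.24 in females (4.9e-08). Ryr2, the calcium release channel, fell by 0.37 in males (1.2e-11) and stood at -0.02 in females (0.38).

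Casq1, the calsequestrin of skeletal muscle, rose in both sexes, by 1.37 in males (8.8e-17) and by 0.70 in females (1.9e-12). So did Atp2a1, the fast skeletal calcium pump, by 0.35 in males (4.6e-08) and by 0.41 in females (1e-08). These 2 did not share the opposite directions of Sln.

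The partners of the light chains in the thick filament, and the enzymes that act on them, were tested as 14 genes. In males 2 rose and 4 fell, with a median of -0.01, against 3 and 1 after quantile normalization, 1 and 6 after median centring and 1 and 4 with the replicate number as a block. In females 7 rose and 1 fell, with a median of 0.08, and 6 rose and 4 fell with the library labelled female floxed 3 alone of its group. The shares called were 42.9% in males and 57.1% in females, against 27.4% and 29.3% over all genes tested. Mylk3, the kinase of the cardiac regulatory light chain, rose by 0.28 in males (7.6e-10) and by 0.11 in females (6.1e-05). Mylk, the kinase of smooth muscle light chains, fell by 0.25 in males (1.9e-06) and stood at 0.05 in females (0.23).

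Tnnt2, cardiac troponin T, fell by 0.21 in males (4.1e-09), a call lost after quantile normalization, and by 0.26 in females (5.2e-10). Tnni3, cardiac troponin I, fell by 0.19 in males (2.3e-06) but stood at 0.11 after quantile normalization, and at -0.03 in females (0.35). Myh7b, a slow-type myosin heavy chain, rose by 0.34 in females (9.5e-09) and was 0 apart in males to 2 decimals (0.98). Actc1, cardiac actin, rose by 0.18 in females (8.9e-07).

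Markers of other cell types moved in the same contrasts as the 8 genes. The shares called were 55.6% in males and 66.7% in females for epicardium and mesothelium, and 75% in each sex for fibroblasts. Over all genes tested they were 27.4% in males and 29.3% in females. Of 9 markers of epicardium and mesothelium, the outer lining of the heart, 5 rose and 0 fell in males, and 0 rose and 6 fell in females. With the library labelled female floxed 3 alone of its group, 0 rose and 5 fell in females, and 3 of the 6 female falls shrank by over 1.5 times, Upk1b to -0.19 in place of -0.96, Krt19 to -0.08 in place of -0.21 and Bnc1 to -0.04 in place of -0.14. Their summed level was 1847 to 1879 in male cardioGRKO and 1596 to 1641 in male floxed libraries, and 1550 to 1581 in libraries labelled female cardioGRKO and 1828 to 1979 in those labelled female floxed. Upk3b, a mesothelial membrane protein, rose by 0.52 in males (2.3e-09) and changed by -0.44 in females (3.2e-08). Of 8 fibroblast markers 6 rose and 0 fell in males, and 1 rose and 5 fell in females. With the library labelled female floxed 3 alone of its group, 0 rose and 4 fell in females, and the collagen genes Col1a1 and Col1a2 stood at -0.04 in place of -0.22 and at -0.08 in place of -0.20.

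Other markers moved against them or in both directions. The shares called in males and females were 100% and 87.5% for endothelium, and 75% and 58.3% for general cardiomyocytes. They were 77.8% in each sex for sinoatrial and conduction markers, and 85.7% and 57.1% for smooth muscle and pericytes. For adipocytes they were 66.7% and 83.3%, and for corneal epithelium 0% and 100%. Over all genes tested 27.4% and 29.3% were called. Of 8 endothelial markers 1 rose and 7 fell in males, and 5 rose and 2 fell in females. Of 12 general cardiomyocyte markers 1 rose and 8 fell in males, and 6 rose and 1 fell in females. After quantile normalization 3 rose and 3 fell in males and 2 rose and 3 fell in females, and with the library labelled female floxed 3 alone of its group 6 rose and 4 fell in females. Sinoatrial and conduction markers, of which Isl1 was not tested, rose in 7 of 9 cases and fell in 0 in males, and rose in 3 and fell in 4 in females. Their summed level was 5762 to 5790 in male cardioGRKO and 5214 to 5238 in male floxed libraries, and 5593 to 5738 in libraries labelled female cardioGRKO and 5317 to 5588 in those labelled female floxed. Smooth muscle and pericyte markers rose in 1 and fell in 5 of 7 cases in males, and rose in 1 and fell in 3 in females. Adipocyte markers rose in 2 and fell in 2 of 6 tested in males, and rose in 5 and fell in 0 in females. The 7 corneal markers were called lower in females in 7 cases, and in males the lowest adjusted p among them was 0.79. With the library labelled female floxed 3 alone of its group, 2 were called lower in females and 3 in males. No listed marker was at 0, and the part of these cell types in the values of the 8 genes was not tested.

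The likeness of other genes to the 8 was measured as Pearson's r over the 12 libraries with the mean of the 8, each centred on its own mean. The libraries fall into 4 groups, so r reflects group means and is given as a description. Among the 8 themselves r with their mean was 0.997 for Sln, 0.994 for Dkk3, 0.988 for Stard10, 0.987 for Sbk3, 0.982 for Myl4, 0.981 for Mybphl and 0.955 for Myl7. For Bmp10, with its low male floxed group, it was 0.845. Of all other genes tested, the 10 most alike were Tmem163 (r = 0.997), Igfbp5 (0.995), Lingo1 (0.991), Cacna1g (0.990), Cyp1b1 (0.989), Sfrp5 (0.989), Fgf12 (0.988), Cacna2d2 (0.987), Adcy1 (0.986) and Gja5 (0.986). Gja5 encodes connexin 40, a gap junction protein of atria and conduction system, and Cacna1g a T-type calcium channel.

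Fgf12, an intracellular relative of fibroblast growth factors that binds sodium channels, stood at 9.66, 9.65 and 9.64 in male cardioGRKO libraries, against 8.60, 8.52 and 8.48 in male floxed libraries. Its female-labelled values were 8.56, 8.59 and 8.57 in cardioGRKO, against 9.19, 9.15 and 9.19 in floxed. It was the gene closest to Stard10 (r = 0.997). Tbx5, a transcription factor of atrial and conduction tissue, was the closest to both Myl4 (0.995) and Mybphl (0.997). Tmem163 was the closest to Sln (0.995), Upk3b to Myl7 (0.991), Nppa to Bmp10 (0.993), Sfrp5, a secreted Wnt inhibitor, to Dkk3 (0.991) and Podn, a matrix proteoglycan, to Sbk3 (0.996).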

How the data were processed

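The 12 libraries hold mouse heart RNA, 3 for each sex and genotype. The analysis started from the authors' deposited table of normalized log2 values per gene and library. The submitters' processing notes name Trim Galore, TopHat2, build mm9, HTSeq and DESeq2, with no versions. The lowest deposited log2 value is -2.20, and 4895 genes are listed at 0 in all libraries. The exact transformation is not given in the sources used here, and depth is unknown, so precision is the spread between libraries. Folds and shares use the values raised back to a linear scale, where a transformation that shrinks low values would understate differences.

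Genes with at least log2 of 10 in at least 3 libraries were tested, 14721 in all. In R 4.3.3, limma 3.58.1 fitted 1 mean per group to all 12 libraries, leaving 8 residual degrees of freedom, with an intensity trend. The p-values are two-sided, adjusted after Benjamini and Hochberg over all genes tested and called under 0.05. The script was tested on simulated data.

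The 8 genes, the lists and the tests were chosen with earlier results of these data known. Named genes were the 8, Nr3c1, from each list up to 4 called genes with the smallest p in each sex, and the genes most alike to the 8 in pattern. Acvrl1, Kcnk3, Myl2, the markers other than Upk3b and the neighbouring genes were named outside this rule.

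As alternatives, the filter was dropped or raised to log2 of 50, values were quantile normalized or centred on each library's median, and moderation was run without a trend or robustly. The replicate number was used as a block, each sex was fitted alone, 1 library was left out at a time and, chosen after seeing the data, the library labelled female floxed 3 was used alone of its group. Exon lengths and overlaps came from GENCODE M21, promoter windows and gene order from RefSeq GRCm38.p6, neither on the build of the deposited table.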

Additional observations from a re-analysis of the deposited data

Results flagged for a closer look

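Differences between cardioGRKO and floxed that were not the same in the 2 sexes were listed for a closer look, as the male difference minus the female difference on the log2 scale. Every direction in females rests on labels that Nr3c1 goes against. In the 8 atrial muscle genes all male cardioGRKO libraries lay above the floxed ones and all libraries labelled female cardioGRKO below. The differences between the sexes were 3.17 for Bmp10, 2.92 for Myl4, 2.81 for Dkk3, 2.79 for Myl7, 2.58 for Sln, 2.40 for Mybphl, 2.26 for Sbk3 and 1.56 for Stard10. They were not tested, because these libraries chose the genes.

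For Nr3c1 itself the value was -0.70, by limma's test of the difference (adjusted p = 1.1e-10). The same test called 32 of the 35 other named list genes, leaving out Kcnip2, Id3 and Atp2a1. These genes were named for their small p within a sex, so this share follows in part from how they were named and is not set against that of all genes. Among other atrial genes the values were 3.90 for Nppa, 1.74 for Cacna1h, 1.35 for Pam, 1.24 for Hamp, 0.54 for Kcnj5 and 0.17 for Kcna5. Among ventricular genes they were -0.26 for Pln, -0.21 for Lbh, -0.19 for Myl3, -0.17 for Kcnj2 and 0.28 for Irx3. Among relatives of the 8 they were 1.14 for Sbk2, 0.93 for Myl9, 0.69 for Myl1, -0.38 for Mybpc2 and -0.12 for Mybpc3.

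In the BMP10 pathway the values were 0.46 for Tbx20, 0.41 for Smad6, 0.36 for Smad7, 0.34 for Id2, 0.27 for Acvr1 and -0.20 for Smad5. Around the calcium pump they were 0.67 for Casq1, -0.44 for Hrc, -0.40 for Atp2a2 and -0.35 for Ryr2. In the thick filament list they were -0.35 for Myh7b, -0.30 for Mylk, -0.18 for Actc1, -0.16 for Tnni3, 0.17 for Mylk3 and 0.05 for Tnnt2. What these differences between the sexes reflect was not tested.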

How the results depend on the processing

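All 240 values of the single atrial muscle genes under the alternatives kept their direction. Their medians were 1.59 in males and -1.03 in females after quantile normalization, and 1.54 to 1.57 and -1.02 to -1.0 when 1 library was left out. Of 1080 values of other named genes, 1056 kept their direction and side of the threshold, 15 were no longer called, 6 became called and 3 changed sign, all 3 in males after quantile normalization (Myl3 at 0.05, Lbh at 0.01 and Tnni3 at 0.11). That method also called 4 ventricular genes in males in place of 7. The cause was not tested. With the library labelled female floxed 3 alone of its group, fewer libraries called 2734 genes in females in place of 4309. Leaving out 1 library gave 3391 to 4269 genes in males, 3393 to 4272 in females and 4133 to 4907 for the difference between the sexes. With the replicate number as a block these were 3752, 3988 and 4428. Deviations of same-numbered libraries correlated at -0.11 to 0.148, and those of differently numbered libraries at -0.222 to 0.24. With 3 libraries per group, these values cannot tell whether the numbers pair the libraries. Median centring left 38.3% of male calls higher, against 46.6%. Values are limited by 3 libraries per group and an unknown depth.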

Other observations

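The 2 protein-coding genes on either side of each atrial muscle gene were read as the local surroundings, 32 genes of which 29 were tested. Of these 29, 7 rose and 2 fell in males, with differences of -0.10 to 0.77 and a median of 0.01, where 27.4% of all genes tested were called. The male count is near that share, so it is not a result about the neighbours. In females 4 rose and 8 fell of the 29, with a median of -0.03, where 29.3% of all genes tested were called. Whether the female count differs from that share was not tested. The genes next to Sbk3 on both sides moved with it. These are Sbk2, described above, and Zfp579, a zinc finger gene, which rose by 0.53 in males (limma, adjusted p = 6.9e-09) and changed by -0.34 in females (2e-06). Near Myl7, Aebp1, a matrix protein gene, rose by 0.23 in males (3e-05) and changed by -0.37 in females (3.3e-07). Sort1, the sorting receptor gene next to Mybphl, rose by 0.47 in males (1.4e-10) and changed by -0.08 in females (0.012). Mical2, an actin-oxidizing enzyme gene next to Dkk3, rose by 0.29 in males (2.4e-08) and by 0.06 in females (0.046). The 3 tested neighbours of Myl4 were not called in either sex, with Kansl1 at -0.02, Cdc27 at -0.03 and Itgb3 at 0.02 in males. These genes were named after their values were seen.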
